A study of Mus musculus with 8 samples.

Results

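The regions described are 869 places in the genome of mouse embryonic stem (ES) cells where H2A.X was called higher in DNMT1 knockout (KO) cells than in their control, and which also lie at places called higher in 2i medium than in serum. They were taken from 6 deposited lists of H2A.X domains, which hold 25499 domains in all. The members were chosen by the enrichment marks of the DNMT1 list and the serum and 2i list, so their levels in these lists are a description. The rule took each DNMT1 KO domain on chromosomes 1 to 19, without chromosomes 6 and 8, that overlapped a 2i domain of the serum list by at least 1 base. On these 17 autosomes 869 of 1312 DNMT1 KO domains were members, or 66.2%, and the other 443 met no 2i domain. Each condition is 1 library, so there is no replicate error, no difference between conditions could be tested, and no p-value is given. Read depth is unknown.

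H2A.X is a form of the core histone H2A that is best known for its phosphorylation at DNA breaks, and the labels name the antibody used here as one to H2A.X, without a phosphorylated form. DNMT1 copies DNA methylation to the new strand after replication, so cells without it lose methylation. ES cells kept in 2i also carry much less DNA methylation than ES cells in serum. TDG is a glycosylase that removes oxidised forms of methylcytosine, a step in active demethylation.

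The DNMT1 KO cells were of strain 129S6/C57B6 in serum, and the 2i, PKCi and SRCi libraries came from wild-type cells of the same strain label. 2i medium was a commercial kit. The PKCi medium contained Gö6976 at 5 µM, a blocker of protein kinase C, and the SRCi medium contained the Src inhibitor CGP77675 at 1.5 µM with the GSK3 inhibitor CHIR99021 at 3 µM. The TDG control (wild type), TDG knockdown (KD), TKO control (wild type) and TKO cells were of strain 129/Ola in serum with 15% fetal bovine serum. The labels do not spell out TKO, and they do not say whether a KO or KD line is 1 clone. The DNMT1 control and the serum wild-type library enter only through their lists, and whether they are the same library is not given in the sources used here. All cells were profiled with 0.5 µg of the same antibody after micrococcal nuclease digestion.

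A domain is placed on a 1 kb grid of the mm9 genome, and its mark names the library in which it was enriched. The first library of a list is read from the order of conditions in the list's name, and every direction rests on that order. The signed score is the authors' own, has no stated unit and is lower for the second library of a list than for the first. It is not centred on 0, so its sign can go against the mark: domains marked for PKCi, SRCi and TDG KD, each the second library of its list, had positive medians on the 17 autosomes of 4.97, 6.12 and 0.263, and those marked for TKO control, a first library, had a median of -0.578. Sides were therefore taken from the marks, and what the sign means on the broad sides is not given in the sources used here. Genes at the members and their sequences were not analysed here, because the annotation at hand is of another build than mm9. Positions are therefore given without gene, exon or repeat annotation.

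In the other 4 lists 1 side is made of few domains and the opposite side of broad ones. The 4 narrow sides are 2i over PKCi, 2i over SRCi, TDG control and TKO, which covered 0.290%, 0.298%, 0.290% and 0.417% of the 17 autosomes in turn. The 4 broad sides are PKCi, SRCi, TDG KD and TKO control, which covered 84.4%, 86.1%, 30.0% and 27.1%. These shares leave out the first 3 Mb of each chromosome and blocks without signal, which together span 60.2 of 2191 Mb.

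The members were longer than the other DNMT1 KO domains, which an overlap rule favours. By median length the members stood at 58 kb (quartiles 29 and 97 kb, range 1 to 665 kb) and the other 443 at 28 kb (range 1 to 244 kb). They covered 63.8 Mb, or 79.7% of all bases of DNMT1 KO domains on these chromosomes. Of the members, 205 were 100 kb or longer and 65 were shorter than 10 kb, among them 21 of a single 1 kb bin. The signed score, which comes from a list that chose the members, had a median of -6.49 in members and -6.77 in the other domains. Every member scored -5.01 or lower, and 101 scored below -10. Score and length went together over the 869 members (Spearman's rho = 0.603), so the most negative scores lay in the shortest members; this is a description of domains of 1 list.

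**Figure D1:**
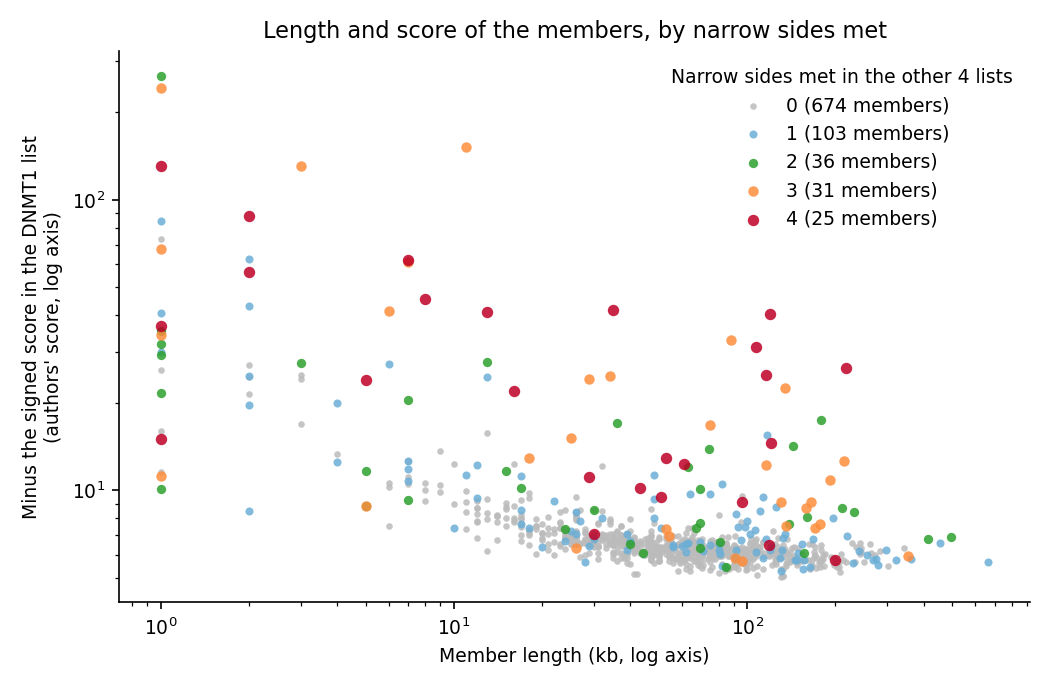
Each point is 1 of the 869 members, with its length in kb on the x axis and minus its signed score in the DNMT1 list on the y axis, both log axes. Colour gives the number of narrow sides of the other 4 lists that the member met. The 674 members that met none are grey and lie mostly along the bottom, with a median score of -6.36, and the 25 that met all 4 are dark red, with a median of -24.1.

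The match with 2i was partial along most members. The 2i domains covered 34.8 Mb of them, which is 54.6% of the members' bases, 43.5% of all DNMT1 KO bases and 32.9% of all 2i bases on these chromosomes. The covered share had a median of 60.4% per member (quartiles 32.1% and 92.5%). A total of 172 members lay wholly inside 2i domains, 512 were covered over at least 50% of their length, and 49 over less than 10%. From the other side, 1035 of 4628 2i domains met a member, and 543 of these lay wholly inside one. The 2i domains therefore were more often inside a member than the reverse.

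Most members, 726, met a single 2i domain, 112 met 2, and 31 met 3 to 5. Both edges of a member rarely coincided with 2i edges: both lay within 2 kb of a 2i edge in 50 members. The left edge did so in 180 members and the right edge in 187, and these 50 are in both counts. The 2i domains that met a member were longer, with a median of 31 kb where the 3593 that met none had 9 kb, and their median scores were -19.04 and -21.3. Member score and the score of the 2i domain it met were weakly related over the 869 members (rho = 0.349), and less so over the 768 members with a score of -10 or higher (rho = 0.139). These points come from 1 pair of libraries in each list.

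At the border of the rule 36 members shared only 1 kb with 2i, and 15 of them were longer than 1 kb. The longest of these were chr1:153182001-153251000, at 69 kb, chr17:14120001-14184000, at 64 kb, and chr9:107649001-107703000, at 54 kb. Just outside, 3 domains touched a 2i domain without sharing a base, at chr9:122835001-122918000, chr14:79299001-79358000 and chr2:126532001-126547000. Only 28 of the 443 other domains lay within 10 kb of a 2i domain, and the median distance over all 443 was 156 kb.

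The members were spread over all 17 autosomes. Chromosome 19 held 6.17 members per 10 Mb and chromosome 10 held 2.83, the highest and the lowest density. The share of DNMT1 KO domains that were members ran from 57% on chromosome 9 (Wilson 95% interval 47.2% to 66.3%) to 83.7% on chromosome 19 (70.0% to 91.9%). These intervals cover counting error only. Chromosome 12 stood at 78.6% (68.7% to 86.0%) and chromosome 14 at 80% (67.0% to 88.8%). Of the members, 46 began in the first 5 Mb used of a chromosome and 38 ended in the last 5 Mb, or 5.29% and 4.37%, where each stretch holds 3.99% of the length.

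**Figure D2:**
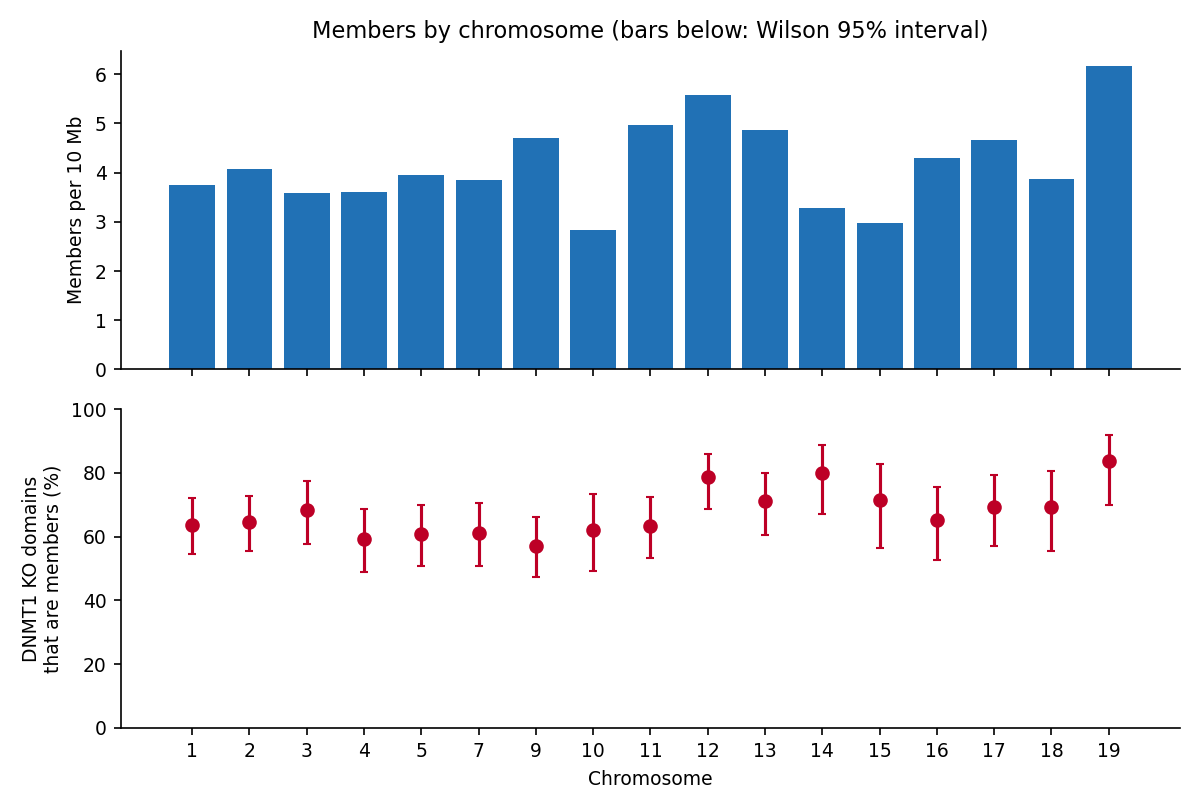
Upper panel, members per 10 Mb of the length used on each of the 17 autosomes; lower panel, the share of DNMT1 KO domains that were members, with Wilson 95% intervals. Density runs from 2.83 on chromosome 10 to 6.17 on chromosome 19, and the share from 57% on chromosome 9 to 83.7% on chromosome 19.

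The median distance from a member to the next was 352 kb, 182 members had another within 100 kb, and 633 had another within 1 Mb. A single 1 Mb stretch held the centres of at most 6 members, at chr4:3000001-4000000 and at chr4:146000001-147000000.

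The longest members were cut by several 2i domains. The longest, chr11:30506001-31171000, spans 665 kb with a score of -5.66, and 5 2i domains covered 266 kb of it. Its 2i stretches had a mean score, weighted by length, of -19.4. In the other lists 350 kb of it lay on the PKCi side, 336 kb on the SRCi side and 664 kb on the TKO control side, with 7 kb on the TDG control side. On chromosome 11 as a whole 58 of 59 members met TKO control, which held 93.4% of their bases. This was not particular to members. Leaving out chromosome 11 lowered the TKO control share from 16.0% to 10.0% of members and from 18.3% to 11.5% of other DNMT1 KO domains.

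A pair of long members stood close together on chromosome 17. The first, chr17:22566001-23063000, spans 497 kb with a score of -6.89, and 2i domains covered 352 kb of it, the most of any member. It met no PKCi, SRCi or TDG KD domain, and it held 45 kb of TDG control and 51 kb of 2i over SRCi. The second, chr17:21954001-22367000, spans 413 kb with a score of -6.81 and 274 kb of 2i. It held 29 kb of 2i over PKCi and 12 kb of TDG control, and 41 kb of SRCi.

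Other long members differed in what they met. At chr5:110068001-110523000, 455 kb long, 2i covered only 39 kb while TKO covered 198 kb, PKCi 267 kb and SRCi 333 kb. At chr2:149946001-150307000, 361 kb long, 2i covered 148 kb and TKO 100 kb. At chr9:100524001-100868000, 344 kb long, a single 2i domain covered 296 kb and no narrow side was met. At chr12:115623001-115977000, 354 kb long, 2i covered 273 kb and TKO control 269 kb, with 57 kb of 2i over SRCi and 10 kb of 2i over PKCi.

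In the medium lists the broad PKCi and SRCi sides covered less of the members than of the autosomes, and the same held for 2i domains that met no DNMT1 KO domain. The PKCi side met 379 members, or 43.6% (Wilson 95% interval 40.4% to 46.9%), and the SRCi side 520, or 59.8% (56.5% to 63.0%). Of all 50 kb windows on the 17 autosomes 89.7% met PKCi and 92.1% met SRCi. By bases the PKCi side held 15.7% of the members and the SRCi side 26.0%, against 52.6% and 70.0% of the other DNMT1 KO domains. The 2i domains that met no DNMT1 KO domain stood at 29.6% for PKCi and 25.3% for SRCi. Most member bases, 79.9% in the PKCi list and 69.3% in the SRCi list, lay on neither side. Of the members, 103 lay wholly in a PKCi domain, against 221 of the 443 other domains. A longer domain is less easily held whole, and the medians were 58 kb in members and 28 kb in the others. This count was not set out by length.

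Low PKCi and SRCi cover went with 2i domains both inside and outside members. Within members the PKCi side held 4.08% of the bases that 2i shared and 29.7% of the rest, and the SRCi side 9.0% and 46.5%. Where the same 2i domains ran on outside members, PKCi held 3.65% and SRCi 6.17% of the bases, less than in the shared bases. Members wholly inside 2i domains met PKCi in 17 of 172 cases, and those under 25% covered in 112 of 160. Whether the 3 lists that name 2i use the same 2i library is not stated, so the 2i signal and the signal of the other medium cannot be told apart.

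The narrow 2i sides of these lists met few members. 2i over PKCi met 81 members, or 9.32% (7.56% to 11.4%), and 2i over SRCi 79, or 9.09% (7.36% to 11.2%). Of the 50 kb windows 0.556% and 0.54% met these sides, and of all DNMT1 KO domains 6.17% and 6.02%. None of the 443 other DNMT1 KO domains met either, which allows a share of up to 0.677%. This may follow in part from the rule, since these domains were chosen as meeting no 2i domain over serum. Both sides met the same member in 62 cases. Within members these sides held 7.98% and 8.48% of the bases shared with 2i and 0.104% and 0.173% of the rest. Outside members they held more of the same 2i domains, 13.2% and 15.2% of the bases, and 2.53% and 1.95% of the 2i domains not met.

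Seen from these sides, 77 of the 133 domains of 2i over PKCi and 70 of the 115 of 2i over SRCi met a member. The 3593 2i domains over serum that met no DNMT1 KO domain were on these sides in 1.39% and 1.25% of cases.

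**Figure D3:**
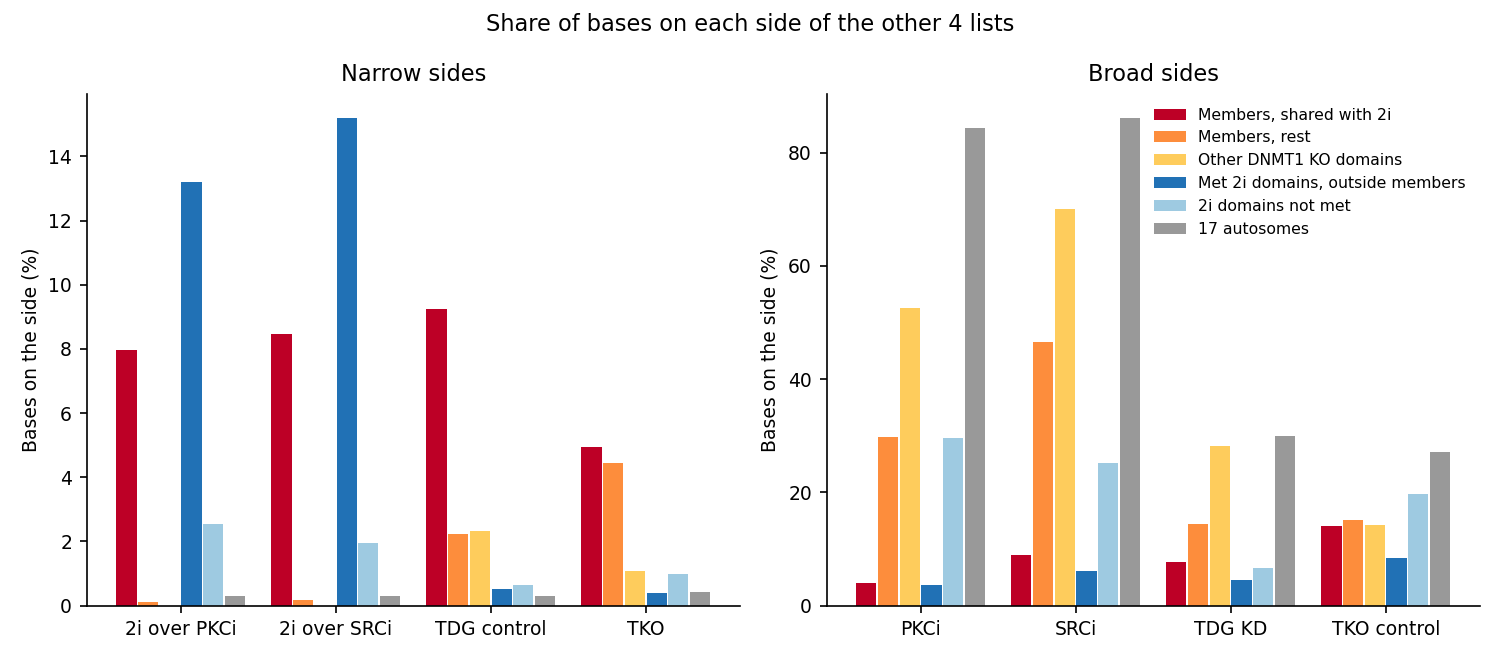
Percent of bases on each side of the other 4 lists, with narrow sides on the left and broad sides on the right, for 6 sets of bases: members shared with 2i, the members' rest, other DNMT1 KO domains, the same 2i domains outside members, 2i domains not met, and the 17 autosomes. TDG control reaches 9.24% in the shared bases and 2.23% in the members' rest, while TKO stands at 4.93% and 4.45% in these and PKCi at 4.08% and 29.7%.

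The TDG and TKO lists come from cells of another strain than the DNMT1 KO and 2i libraries that chose the members. Whether they share a control library with the DNMT1 list or the serum list is not given in the sources used here. TDG control met 134 members, or 15.4% (13.2% to 18.0%), TDG being the glycosylase lowered in the KD cells. The same side met 20 of the 443 other DNMT1 KO domains, or 4.51% (2.94% to 6.87%), 48 of the 3593 2i domains not met by DNMT1 KO, or 1.34%, and 1.17% of 50 kb windows. Over all DNMT1 KO domains the share was 11.7%. The members met 144 of the 387 TDG control domains on these chromosomes. Intervals of members and other domains did not overlap, but they cover counting error only, and domains near each other are not separate observations.

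Summed over all members, TDG control was found where both rules coincide more than where only 1 holds. It held 9.24% of the bases shared by DNMT1 KO and 2i, 2.23% of the rest of the members, 2.34% of the other DNMT1 KO domains and 0.523% of the same 2i domains outside members. The side covers 0.290% of the 17 autosomes. By bases this differed with the DNMT1 score. TDG control held 87.6% of the bases of the 49 members below -20. At -10 to -7 it held 18.7% in members and 6.88% in other DNMT1 KO domains. In the 606 members at -7 or higher it held 1.05%, and 1.17% in the other domains of that class. The opposite side, TDG KD, met 198 members, or 22.8%, against 176 of 443 other domains, or 39.7%, and 31.7% of windows. TDG KD held 7.79% of the shared bases and 14.4% of the members' rest, both below its 30.0% of the autosomes.

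TKO met 74 members, or 8.52% (6.84% to 10.6%), and 8 of the 443 other DNMT1 KO domains, or 1.81% (0.918% to 3.52%). Of 50 kb windows 0.922% met it, and of all DNMT1 KO domains 6.25%. Unlike TDG control, TKO held about the same share of the shared bases, 4.93%, as of the members' rest, 4.45%, and less of the other DNMT1 KO domains, 1.09%. Of the same 2i domains outside members it held 0.387%. The TKO domains that met members had a median score of -6.71, against -4.15 for those that met none, so the members took the TKO domains farther from the control. This did not hold on every narrow side. The TDG control domains that met members had the lower median, 6.66 against 7.71, as had 2i over SRCi, 18.4 against 20.7. On 2i over PKCi it was the higher, 17.3 against 16.7. On these sides a higher score lies farther toward the side.

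TKO control met 139 members, or 16.0% (13.7% to 18.6%), and 81 of the other 443, or 18.3% (15.0% to 22.2%), intervals that overlap. Windows met it in 30.7% of cases. Without chromosome 11 the share of members was 10.0% and that of the other domains 11.5%. The members were thus not set apart from other DNMT1 KO domains by TKO control. Serum, the first side of the list that chose the members, met 82 of them, or 9.44%, against 41.9% of windows, and held 1.07% of their bases; this follows in part from the rule, since 1 place cannot be on both sides.

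**Figure D4:**
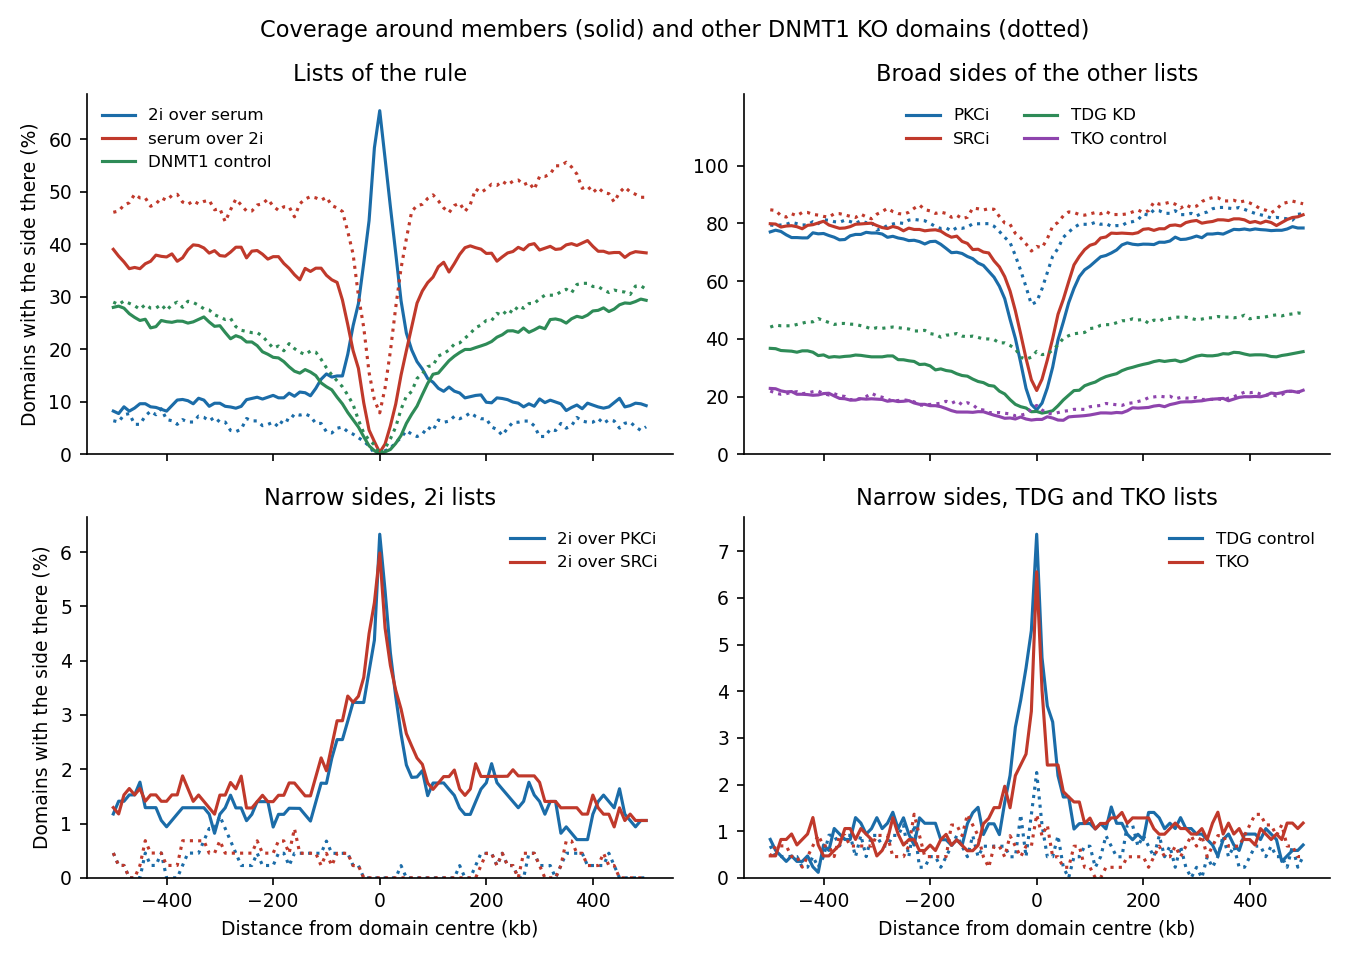
Share of members (solid, 869) and of other DNMT1 KO domains (dotted, 443) that have each side of a list at a given distance in kb from the domain centre, in steps of 10 kb to 500 kb on both sides. At the members' centre 2i over serum stands at 65.5%, PKCi at 15.4%, SRCi at 22.1%, TDG control at 7.36% and TKO at 6.56%; at 500 kb to the right these are 9.27%, 78.4%, 83.0%, 0.704% and 1.17%.

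Around members the PKCi, SRCi, TDG control and TKO sides changed most within 100 kb of the centre. The PKCi side was present at 15.4% of member centres, 45.8% of places 50 kb to the right and 65.2% at 100 kb, and reached 78.4% at 500 kb. At the centres of the other DNMT1 KO domains it was present in 52.8%. TDG control fell from 7.36% at the centre to 1.73% at 50 kb and 1.16% at 100 kb, and TKO from 6.56% to 1.85% and 1.28%. At 500 kb to the right the narrow sides were still above their shares of the 17 autosomes. The narrow 2i sides each stood at 1.06%, against 0.290% for 2i over PKCi and 0.298% for 2i over SRCi. TDG control stood at 0.704% against 0.290%, and TKO at 1.17% against 0.417%. At 500 kb to the left TKO stood at 0.471%. DNMT1 control domains stood at a median distance of 232 kb from members and 204 kb from the other domains. They cannot overlap either, since both are domains of the opposite side of the same list. Serum domains stood closer, at a median of 32 kb from members and 16 kb from the others.

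Length alone could raise the number of members that meet a side, so shares were set out by length. In domains under 10 kb TDG control met 23 of 65 members and 2 of 46 other domains, and TKO also 23 of 65 and 2 of 46. At 20 to 49 kb TDG control met 8.84% of 249 members (5.91% to 13.0%) and 2.84% of 176 other domains (1.22% to 6.48%), and TKO 4.82% and 1.14%. At 50 to 99 kb TDG control met 9.61% of 281 members and 7.78% of 90 other domains, with intervals of 6.69% to 13.6% and 3.82% to 15.2%. At 10 to 19 kb the TDG control intervals were 7.02% to 23.0% for members and 0.923% to 7.65% for other domains, and at 100 kb and over 20.3% to 32.3% and 5.24% to 36.0%. For TDG control the intervals of members and other domains were thus apart only under 10 kb, and overlapped in the other 4 length classes, although the member share was the higher one in each. For TKO the intervals were apart under 10 kb, at 24.9% to 47.5% and 1.20% to 14.5%. They were also apart at 10 to 19 kb, at 7.02% to 23.0% and 0.496% to 6.33%, and overlapped from 20 kb up. The differences themselves were not tested.

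**Figure D5:**
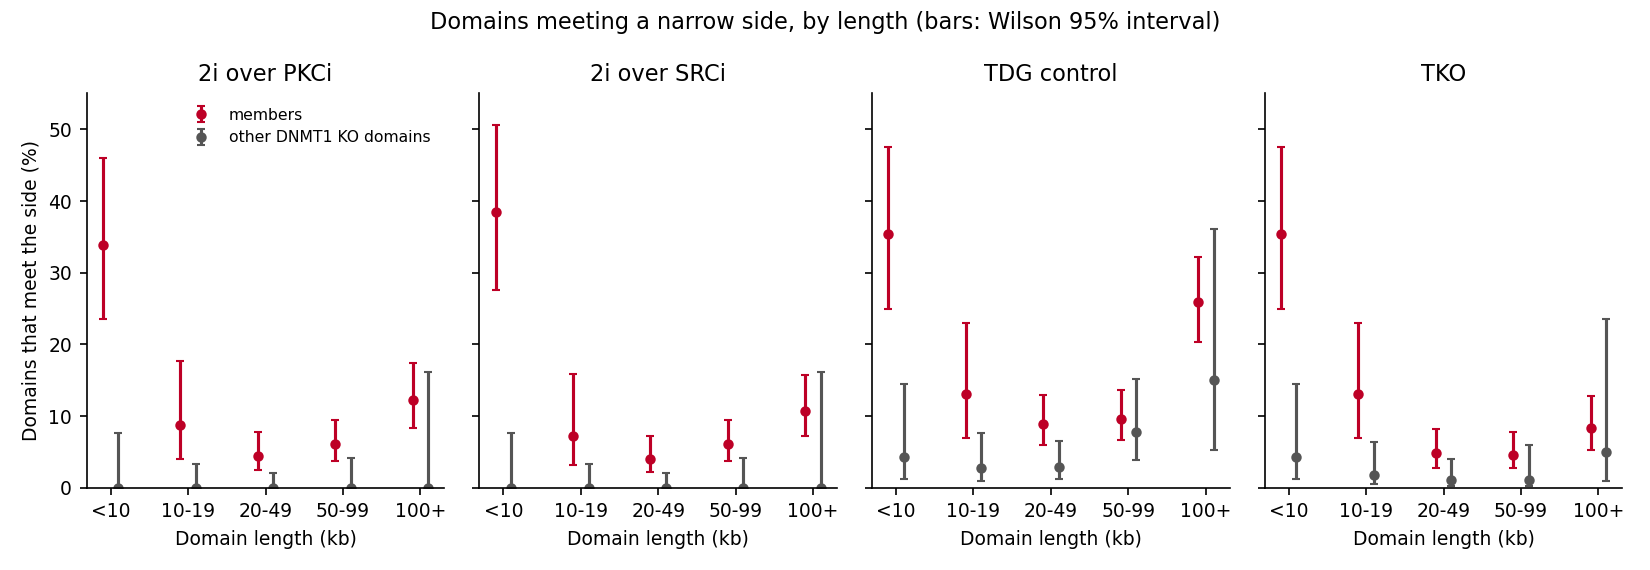
Percent of domains that meet each narrow side, by domain length in kb, for members (red) and other DNMT1 KO domains (grey), with Wilson 95% intervals. Members under 10 kb stand at 33.8% to 38.5% for the 4 sides, and other domains of that length at 0% to 4.35%; for TDG control the intervals overlap in the 4 classes from 10 kb up.

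The members with the most negative DNMT1 scores were also those that met narrow sides. Below -20, 49 members, TDG control met 59.2% (45.2% to 71.8%), TKO 55.1% (41.3% to 68.1%) and each of the narrow 2i sides 59.2%. At -7 or higher, 606 members, these shares were 6.77% for TDG control, 2.97% for TKO, 3.30% for 2i over PKCi and 2.15% for 2i over SRCi. Other DNMT1 KO domains at -7 or higher met TDG control in 3.97% of 252 cases (2.17% to 7.15%) and TKO in 1.19%, against member intervals of 5.03% to 9.05% and 1.89% to 4.65%. Among these weakest domains the members and the others thus overlapped in their intervals for both sides. At -10 to -7 TDG control met 24.7% of 162 members (18.7% to 31.9%). It met 5.13% of 156 other domains in that class (2.62% to 9.79%), so these intervals were apart. TKO met 8.64% of members and 1.92% of other domains at -10 to -7, with intervals that overlapped. At -20 to -10 TDG control met 24 of 52 members and 2 of 31 other domains.

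By the number of narrow sides met, 674 members, or 77.6%, met none, 103 met 1, 36 met 2, 31 met 3 and 25 met all 4. Their median scores were -6.36, -6.86, -9.65, -12.2 and -24.1 in that order. Of the other 443 DNMT1 KO domains, which were chosen as meeting no 2i domain over serum, 416 met none, 26 met 1 and 1 met 2. The sides these met were TDG control or TKO. TDG control alone was the most frequent combination, with 63 members of a median of 84 kb, and TKO alone came next, after all 4 together, with 21 members of a median of 24 kb. TDG control and TKO met the same member in 42 cases. At least 1 narrow side of each kind, 2i and TDG or TKO, was met by 69 members.

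The 25 members that met all 4 narrow sides lie on 12 chromosomes and total 1.46 Mb, with lengths of 1 to 218 kb and a median of 35 kb. Their DNMT1 scores ran from -131 to -5.77, with a median of -24.1. The 2i domains they met had a median score of -34.5, against -20.6 for all 2i domains. On the TDG control side their median was 10.7, against 7.49 for all domains of that side, and on the TKO side -8.15, against -4.39. In each case the 25 lay farther toward the side named than the middle of its domains. Their values are means per member weighted by shared bases, while those of all domains are per domain. Chromosome 4 held 8 of them, chromosome 1 held 4, and chromosomes 7, 9, 10, 13 and 15 held none.

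The longest of the 25 was chr4:146776001-146994000, at 218 kb with a DNMT1 score of -26.3. In the serum list 211 kb of it was on the 2i side, with a mean score of -33.3. TDG control (score 8.41) and TKO (score -5.64) domains had the same 2 edges as this member, and 2i over SRCi covered its full length. The neighbouring chr4:145661001-145768000, 107 kb with a score of -31.2, likewise had the same edges in the TDG control list (8.70) and the TKO list (-7.89). At chr4:144967001-145083000, 116 kb with a score of -24.9, the TDG control score was 8.18 and that of 2i over PKCi 15.4.

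Of the 25, 3 began at the first bases used of a chromosome. At chr11:3000001-3120000, 120 kb, the scores were -40.5 in the DNMT1 list, -143 on the 2i side over serum, 94.8 on the 2i side over PKCi, 98.7 over SRCi, 15.7 in TDG control and -29.4 in TKO. At chr18:3000001-3121000, 121 kb, they were -14.5, -33.3, 17.5, 15.6, 5.99 and -8.68 in the same order. At chr17:3000001-3200000, 200 kb, the DNMT1 score was only -5.77, with -19.6 on the 2i side, 2.47 in TDG control and -4.38 in TKO. Chromosome ends appear too, with chr19:61216001-61335000 at 119 kb and -6.49, and chr2:181652001-181748000 at 96 kb and -9.13.

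Nearness to blocks without signal went with the number of sides met. Within 500 kb of such a block or of a chromosome's end lay 15 of the 25 members that met all 4 narrow sides, 5 of 31 that met 3, 6 of 36 that met 2, 6 of 103 that met 1 and 11 of 674 that met none. Over all members the count was 43, or 4.95%, and these stretches make up 1.08% of the length used. The distance of 500 kb was chosen after the values were seen. The part of such places in the overlaps with other lists was not tested.

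The lowest DNMT1 scores among members belonged to places of 1 to 11 kb. They were chr9:3038001-3039000 at -267, chr12:68160001-68161000 at -243, chr17:39975001-39986000 at -152, chr9:35111001-35114000 at -131 and chr3:56379001-56380000 at -131. All 5 lay wholly in 2i domains, with 2i scores of -183, -177, -36.6, -142 and -44.8 in turn, and all 5 met TKO. In TDG control the first scored 96.9 and the last 45.7, and the place on chromosome 17 was on the TDG KD side at -30.3 instead. A score from a place this short rests on few bins.

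At the other extreme 15 members, or 1.73%, met all 4 broad sides and no narrow side, against 22 of the other 443, or 4.97%. TKO control, which is 1 of these broad sides, met 58 of the 59 members on chromosome 11. The longest 3 of the 15 were all on that chromosome: chr11:33133001-33435000 at 302 kb, chr11:51903001-52064000 at 161 kb and chr11:5205001-5341000 at 136 kb. Their DNMT1 scores were -5.47, -5.75 and -5.49, and 2i covered 214, 13 and 39 kb of them. A further 164 members, or 18.9%, met no domain of any side in the other 4 lists, against 33 of the other 443, or 7.45%. These members were called in the DNMT1 and serum lists alone.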

How the data were processed

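H2A.X was profiled in 8 samples, each 1 library per condition, by native chromatin immunoprecipitation and sequencing, per the labels' protocols. Reads were aligned with Bowtie2 2.0.6 and placed on mm9, per the submitters' processing notes; which domain caller was run, with what settings and scaling, is not given in the sources used here. The authors deposited 6 lists of domains, each made from a pair of libraries, with a signed score and a summed score per domain and no header. Both score columns were used only within a list.

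Members and the lists they were followed through were chosen with earlier results of these data known. Overlap, shared bases and distances were computed on the 1 kb grid with Python 3.11.15, numpy 2.4.6, pandas 2.3.3 and scipy 1.17.1, and checked on simulated domains against a count of bins. Shares carry Wilson 95% intervals; a count of 0 allows 3 of the total. The background is all 50 kb windows of the 17 autosomes from base 3000001 on, without blocks whose serum-list score is within 0.05 of 0. A mean score over several domains of 1 side is weighted by shared bases. Named regions are the 5 longest members, the 5 with the lowest score, the 5 with most shared bases, up to 8 longest that met all 4 narrow sides, the 3 longest that met only broad sides, and those nearest the rule's border; some are printed. Alternatives were an overlap of 50% of the shorter domain, 50% of a member's bases in 2i, the 50% of domains with the highest score, merging within 10 kb, a length of 10 kb or more, leaving out chromosome 11 and, chosen after seeing the data, scores of -10 or higher. The terms narrow and broad side, and the distance of 500 kb from blocks without signal, were set after the values were seen. The planned gene lists were not run, since no mm9 annotation was used here.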

Additional observations from a re-analysis of the deposited data

How the results depend on the processing

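With members required to have 50% of their bases in 2i domains, 512 remained by construction, and 2i over PKCi met 13.9% of them and 2i over SRCi 12.9%. When each side of each list was limited to the 50% of its domains scoring farthest toward it, there were 167 members sharing 4.42 Mb with 2i, of which 2i over PKCi met 18.0%, 2i over SRCi 17.4%, TDG control 25.7% and TKO 26.9%, and 12 met all 4; TDG control then met 2.04% and TKO 1.43% of the other DNMT1 KO domains. With domains of at least 10 kb the share was 7.34% for 2i over PKCi, 6.72% for 2i over SRCi and 6.34% for TKO. With scores of -10 or higher, an alternative chosen after seeing the data, it was 4.56%, 3.78%, 10.5% for TDG control and 4.17% for TKO, and 5 members met all 4; the other domains stood at 4.41% for TDG control and 1.47% for TKO. In every setting run, the 4 narrow sides met a larger share of members than of other DNMT1 KO domains. For the narrow 2i sides this may follow in part from the rule, since the other domains were chosen as meeting no 2i domain over serum. The remaining 31 alternative values of these results stayed within 1.5 times, for counts and lengths, or within the Wilson interval, for shares. For the broad sides 16 of 28 alternative shares did so. Except where the construction shows it, the cause was not tested. No paired analysis was possible because the lists hold 1 library a condition. What depth limits is not known, as no read counts are at hand.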

Other observations

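Members that met a TDG control or TKO domain often had the same edges as that domain on the 1 kb grid. Both edges were equal in 30 of the 134 members that met TDG control, 17 of them 10 kb or longer, and in 22 of the 74 that met TKO, 12 of them 10 kb or longer. With 2i domains over serum, which chose the members, both edges were equal in 16 of 869. They were equal with 2i over PKCi in 6 of 81 members and with 2i over SRCi in 2 of 79. On the broad sides they were equal with TKO control in 9 of 139 members and with TDG KD in 5 of 198. With PKCi, whose domains that met members had a median of 432 kb, this was so in 0 of 379. Among the other DNMT1 KO domains 3 of the 20 that met TDG control and 3 of the 8 that met TKO had equal edges. So had 9 of the 81 that met TKO control and 7 of the 176 that met TDG KD. The comparison was chosen after the values were seen, and its cause was not tested.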
